A study of Mus musculus with 8 samples.

Results

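The RNA of 3T3-L1 cells that had become fat cells was compared with that of the same line while it was still dividing. 3T3-L1 is an established mouse line of fibroblast-like cells, labelled as of Swiss albino strain, that turns into fat cells under hormones. The comparison used 4 of the 8 libraries of the series, chosen by their stage label: 2 of differentiation and 2 of proliferation. Of the 22798 genes in the table, 14647 reached 10 on average across all 8 libraries and were tested. Proliferating cells had not been given the adipogenic cocktail. Differentiated cells were taken 6 days after that cocktail, a mix of insulin, isobutylmethylxanthine (0.25 mM) and dexamethasone (1 µM). It was on the cells for 48 hours and was followed by insulin alone. All stages were grown in medium with 10% fetal bovine serum. Beside these, 2 libraries came from quiescence, 48 hours at confluence, and 2 from clonal expansion, 10 hours after the cocktail. They entered the fit to share its estimate of spread and are described only as points on the way. The ends therefore differ in time, in cell density and in hormones at once, and these cannot be told apart. It is 1 cell line, and the labels do not say whether the libraries of a stage came from separate cultures. The p-values thus rest on how far libraries of 1 stage differ, and that difference may be purely technical.

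Dexamethasone acts on the glucocorticoid receptor, isobutylmethylxanthine raises cyclic AMP, and insulin acts through the insulin and IGF1 receptors. Together they start a relay in which C/EBPβ and C/EBPδ come first, followed by PPARγ and C/EBPα, the pair of transcription factors that switches on and maintains fat cell genes. A fat cell takes up glucose and fatty acids, stores them as triglyceride in a droplet, releases them on demand and secretes hormones. A dividing preadipocyte is a fibroblast with stress fibres and a collagen-rich matrix.

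Values are pseudo-counts, the authors' read counts per gene brought to a common library size. They are not divided by transcript length, so levels are compared between libraries and not between genes. They summed to 122413485 and 123940067 at proliferation and to 148552972 and 149542130 at differentiation. Both libraries of a stage correlated across genes at r = 0.9947 and 0.9957 on the log2 scale. Fold changes are given as log2FC, the difference of the means of log2(value + 1), differentiation minus proliferation, with its standard error (SE, n = 2 libraries per stage). A gene was called where limma's two-sided test gave an adjusted p under 0.05 over all genes tested. The 7 genes fixed as markers to check the fat cell label (Adipoq, Fabp4, Plin1, Cidec, Cfd, Lep and Slc2a4) had a log2FC of at least 8.68, so the differentiated libraries carried the RNA of fat cells. Because these are bulk samples, more fat cells and more RNA of these genes per cell cannot be told apart.

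Most tested genes differed between the ends. Of 14647 genes, 9927 were called (67.8%), 5051 higher (34.5%) and 4876 lower (33.3%) at differentiation. A change of at least 2-fold was found for 2729 higher (18.6%) and 2585 lower genes (17.6%), of at least 4-fold for 1233 and 1178, and of at least 16-fold for 491 and 196. The largest changes were thus more often rises. With each library scaled to the same total, 36.6% of the calls were higher genes in place of 50.9%, and the median log2FC of all genes moved from 0.02 to -0.25. In 3185 genes (21.7%) the 95% interval of the change lay within 1.5-fold on either side.

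**Figure D1:**
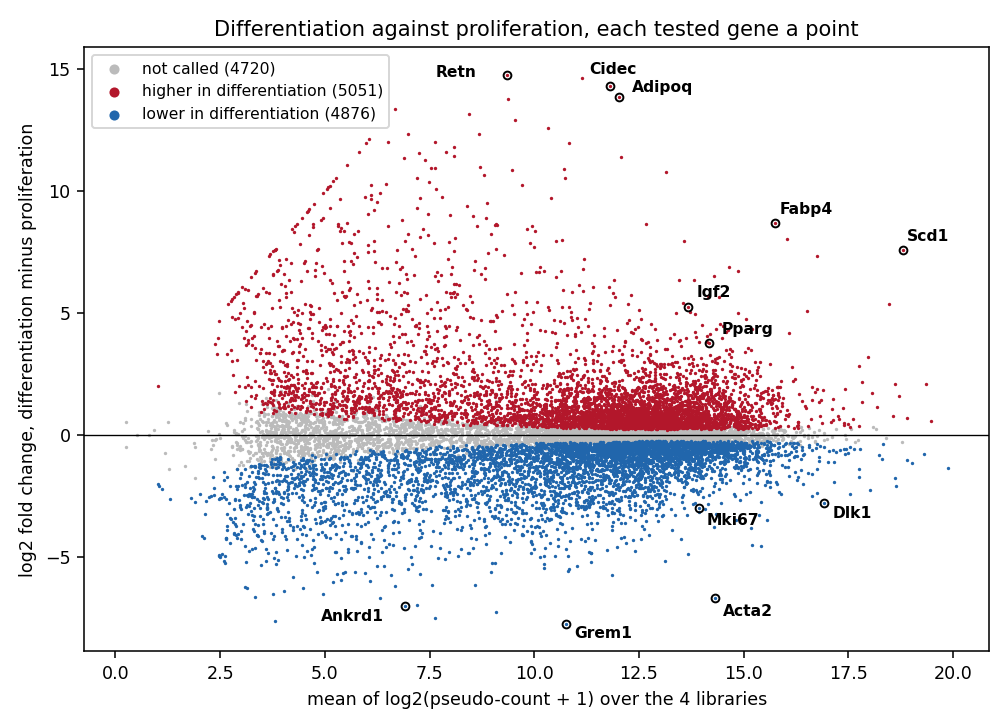
Log2FC of each tested gene (vertical) against its mean log2(pseudo-count + 1) over the 4 libraries (horizontal). The 5051 genes called higher at differentiation are red, the 4876 called lower blue and the 4720 others grey, and Retn, Cidec and Adipoq lie above a log2FC of 13.

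The largest rises included genes of the fat cell's secretions, droplet and receptors. Retn, the gene of the hormone resistin, stood at 4.41 and 1.801 at proliferation and at 108747 and 108875 at differentiation (log2FC 14.77, SE 0.37, adjusted p = 1.36e-09). Cfd, which encodes the complement protease adipsin, went from 19.6 and 8.82 to 365917 and 350608 (log2FC 14.62). Cidec, a protein that fuses lipid droplets, went from 35.0 and 16.3 to 476118 and 550539 (log2FC 14.32). In these 3 genes the stages lay far apart, and proliferation 1 was the higher of the proliferating libraries.

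Adipoq, the gene of the hormone adiponectin, rose from 42.3 and 25.7 to 485712 and 532404 (log2FC 13.87). Pnpla3, a lipid droplet protein of the patatin family, rose from 10.3 and 5.46 to 62656 and 68224. Thrsp, known as Spot 14 and linked to fatty acid synthesis, rose from 21.8 and 10.7 to 87244 and 119623. O3far1, a receptor for long-chain fatty acids, was listed at 0 at proliferation and at 13731 and 8101 at differentiation. Mrap, which carries the corticotropin receptor to the cell surface, Ffar2, a receptor for short-chain fatty acids, Car3, a carbonic anhydrase, and the unnamed locus 4930511E03Rik were also among the 12 largest rises. For genes this low at proliferation the size of the fold depends on the constant added before the logarithm. That of Retn was 14.98 with a constant of 0.5 and 12.48 with 16, and that of Ffar2 was 12.99 and 9.08.

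The largest falls included secreted signals, smooth muscle actin and a regulator of G protein signals. Grem1, a secreted inhibitor of BMP proteins, fell from 23901 and 26797 to 150.4 and 91.7 (log2FC -7.74, SE 0.20, adjusted p = 1.50e-09). Rgs4, which shortens signals of G protein-coupled receptors, fell from 5414 and 8301 to 52.2 and 35.1 (log2FC -7.26). Acta2, smooth muscle α-actin, fell from 186619 and 229035 to 1639 and 2416 (log2FC -6.70). Both libraries of one stage lay above both of the other in each of these genes, which was a condition for naming them here. The same held in 9926 of the 9927 called genes.

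Vip, a neuropeptide, stood at 150.0 and 262.8 at proliferation and was listed at 0 at differentiation. Cck, the gene of another peptide hormone, fell from 261.9 and 336 to 4.17 and 1.05. Pdgfb, a chain of platelet-derived growth factor, fell from 925.5 and 802.8 to 10.5 and 11.3, and Etv4, an ETS transcription factor, from 1398 and 1782 to 21.9 and 20.6. Irf5, an interferon regulatory factor, fell from 2907 and 3524 to 50.3 and 39.4. Fgd3, Ankrd1, Ctgf and Siglecg were the others among the 12 largest falls.

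Transcription factors that drive fat formation were mostly higher and factors that hold it back were mostly lower. Of 27 tested drivers and coactivators, 21 were called higher and 2 lower, beside 34.5% and 33.3% of all genes. Their median log2FC was 1.44 beside 0.02 for all genes. Pparg, the gene of PPARγ, rose from 5456 and 4685 to 71292 and 65599 (log2FC 3.76, SE 0.13, adjusted p = 7.55e-09), 13.5-fold between stage means. Cebpa, the gene of C/EBPα, rose from 2150 and 1604 to 76421 and 80355 (log2FC 5.40, SE 0.16), 41.8-fold. Both genes were thus already measured well above the filter in dividing cells. In mm9 Pparg lies at chr6:115311239-115440419 and Cebpa at chr7:35904312-35906951.

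The early C/EBP genes differed from that. Cebpb stood at 4032 and 3996 at proliferation and at 12069 and 11480 at differentiation (log2FC 1.55, SE 0.16). Cebpd stood at 4110 and 4629 against 4977 and 4062, which was not called (log2FC 0.04, 95% interval -0.27 to 0.36, limma adjusted p = 0.80). At clonal expansion Cebpb stood at 27886 and 21541 and Cebpd at 13804 and 12002, above both ends in each case. A comparison of the ends alone does not show that passage.

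Other members rose as well. Klf15, a Krüppel-like factor, rose from 5.98 and 11.3 to 19755 and 17929 (log2FC 10.99), and Mlxipl, the glucose-sensing factor ChREBP, from 1.05 and 2.19 to 2406 and 2618 (log2FC 9.94). Ppargc1b, a coactivator of mitochondrial genes, rose from 80.6 and 80.8 to 7033 and 9502. Nr1h3, the oxysterol receptor LXRα, rose from 1128 and 840.6 to 23005 and 23727 (log2FC 4.58). The 2 drivers called lower were Klf4, at 9576 and 9439 against 2584 and 2567, and Ebf3, at 8935 and 9129 against 3063 and 3282. Klf4 acts early in 3T3-L1 adipogenesis and is also known as a stem cell factor.

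Of 29 tested inhibitors of fat formation, 22 were called lower and 4 higher (median log2FC -1.39), beside 33.3% and 34.5% of all genes. Id2, which keeps basic helix-loop-helix factors off DNA, fell from 5696 and 7164 to 148.0 and 260.7 (log2FC -5.02), its relative Id3 from 16314 and 21373 to 1010 and 989.5 (log2FC -4.22), and Id4 from 3470 and 4226 to 256.2 and 301.9. Gata2, a zinc finger factor that restrains Pparg, fell from 3832 and 4099 to 197.5 and 300.4. Dlk1, the preadipocyte surface protein Pref-1, fell from 345246 and 310009 to 43216 and 51599 (log2FC -2.79, SE 0.16), which left 0.145 of its mean level. The 4 called higher were Irf4, from 3.12 and 4.64 to 1006 and 780.8, Ddit3, the stress factor CHOP (log2FC 1.30), Irf3 (0.36) and Tgfb1 (0.35). The calls of Irf3 and Tgfb1 were lost without the library proliferation 2, and 2 members were then called higher.

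The 7 lists of fat cell genes rose together and took a larger part of the RNA. Among all tested genes 34.5% were called higher and 33.3% lower, which is the background for each of these lists. Over their union of 144 genes, 137 were tested, 110 were called higher and 13 lower, and the median log2FC was 2.46. They took 1.30% and 1.29% of all pseudo-counts at proliferation and 13.0% and 13.4% at differentiation. Scd1, stearoyl-CoA desaturase, which places the double bond in oleate, alone took 4.22% and 4.20% of the differentiated libraries. It rose from 34138 and 31916 to 6271887 and 6282703 (log2FC 7.57, SE 0.11), 190.1-fold.

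**Figure D2:**
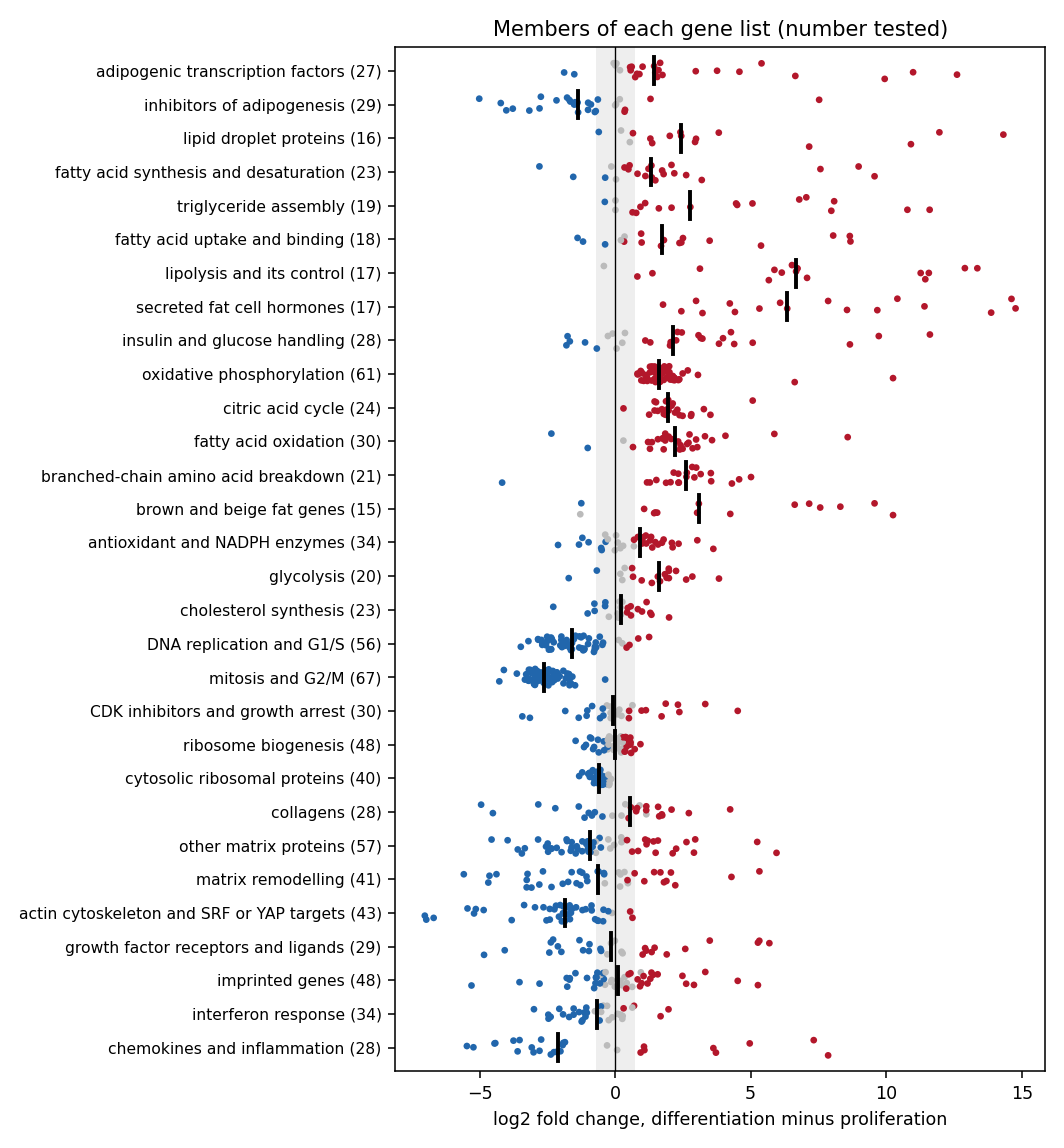
Log2FC (horizontal) of each tested member of 30 gene lists (rows, number tested in brackets). Members called higher are red, called lower blue and others grey, black bars are list medians and the grey band holds the middle 50% of all tested genes, so that the mitosis and G2/M list lies to the left of the band and the lipolysis and hormone lists to its right.

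Droplet proteins were called higher in 13 of 16 and lower in 1 (median log2FC 2.42). Plin1, perilipin, the coat of the fat cell droplet, rose from 30.4 and 25.4 to 109812 and 119876 (log2FC 11.96, SE 0.17). G0s2, which inhibits the triglyceride lipase ATGL, rose from 47.2 and 29.8 to 84939 and 64360, and Cidea, a relative of Cidec, from 5.07 and 1.79 to 706.5 and 486.5. Plin3, the perilipin that is found in most cells, was the one called lower, from 21316 and 18518 to 13364 and 12738 (log2FC -0.61). The perilipins therefore did not move as a family.

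Of 23 enzymes of fatty acid synthesis and desaturation, 18 were called higher and 3 lower (median 1.34). Fasn, fatty acid synthase, rose from 83795 and 85319 to 720036 and 830343 (log2FC 3.19). Scd3 rose from 21.4 and 11.3 to 8605 and 8140, and Scd2, already high in dividing cells, from 205830 and 186892 to 829882 and 823891 (log2FC 2.08). The Scd genes are close relatives, so some of their reads may be shared. Elongases went both ways. Elovl3 rose from 3.09 and 0.885 to 2533 and 1751, whereas Elovl6, which extends palmitate, fell from 10486 and 12518 to 3524 and 4356 (log2FC -1.55) and Elovl7 from 74.0 and 81.1 to 9.49 and 11.2.

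Triglyceride assembly was called higher in 16 of 19 and lower in 1 (median 2.77). Pck1, which feeds glycerol synthesis from pyruvate, rose from 4.54 and 2.31 to 14108 and 12407, and Gpd1, which makes glycerol phosphate, from 224.7 and 205.3 to 304978 and 471532 (log2FC 10.78). Dgat2, which adds the last fatty acid, rose from 821.8 and 710.5 to 185361 and 199342 (log2FC 7.97, SE 0.11). The one lower member, Agpat4 (-0.38), lost its call when proliferation 1 or either differentiation library was left out.

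Of 18 genes of fatty acid uptake and binding, 13 were called higher and 3 lower (median 1.74). Fabp4, the fatty acid binding protein aP2, stood at 2727 and 2739 at proliferation and at 1145776 and 1095174 at differentiation (log2FC 8.68, SE 0.14, adjusted p = 1.22e-10), 410-fold. Fabp5, the form found in many other tissues, rose from 6766 and 8016 to 92081 and 73742 (log2FC 3.48). Lpl, the lipase that frees fatty acids from lipoproteins, rose from 59409 and 52890 to 2212340 and 2459331, and Cd36, a fatty acid receptor, from 400.0 and 264.4 to 135907 and 127291. Acyl-CoA synthetases split: Acsl1 rose from 3582 and 4732 to 1009189 and 1167504, while Acsl5 fell from 10912 and 12854 to 5052 and 5358.

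Lipolysis and its control rose in 16 of 17 with none called lower (median 6.67). Pnpla2, the lipase ATGL, rose from 3007 and 2788 to 278915 and 335529, and Lipe, hormone-sensitive lipase, from 2258 and 1937 to 185158 and 199375. Receptors that restrain lipolysis were raised from near 0: Gpr81, the lactate receptor, from 6.18 and 2.71 to 14071 and 14640, and Niacr1, the receptor of nicotinic acid and β-hydroxybutyrate, from 3.09 and 0.885 to 9695 and 7352. Adrb3, the fat cell β-adrenergic receptor that triggers lipolysis, rose from 2.08 and 2.77 to 7322 and 9655. The related Adrb1 was the member not called, at 201.8 and 226.4 against 186.3 and 136.9 (log2FC -0.42, limma adjusted p = 0.15).

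All 17 tested secreted fat cell products were called higher, each by at least 2-fold (median 6.35), although the quantile scaling and the fits without one library left between 16 and 17. Lep, leptin, rose from 2.06 and 0.8996 to 1784 and 2162 (log2FC 9.67, SE 0.39), and Hp, haptoglobin, from 100.8 and 64.8 to 219539 and 226632. Below the filter, Rbp4, the retinol carrier, was listed at 0 at proliferation and at 41.8 and 11.8 at differentiation.

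Genes of insulin action and glucose handling were called higher in 18 of 28 and lower in 5 (median 2.15). Slc2a4, the insulin-regulated transporter GLUT4, rose from 52.4 and 39.0 to 43082 and 35414 (log2FC 9.72, SE 0.22). Pcx, pyruvate carboxylase, rose from 18035 and 14584 to 529447 and 562247, and Insr, the insulin receptor, from 10240 and 9374 to 39699 and 41238 (log2FC 2.05). Pygl, the liver form of glycogen phosphorylase, was listed at 0 at proliferation and at 2759 and 3542 at differentiation. The lower members included 3 that damp insulin signals, Socs3 (-1.80), Grb14 (-1.76) and Grb10 (-1.67), and Akt1, a kinase of that pathway, from 60106 and 62280 to 26655 and 30045.

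**Figure D3:**
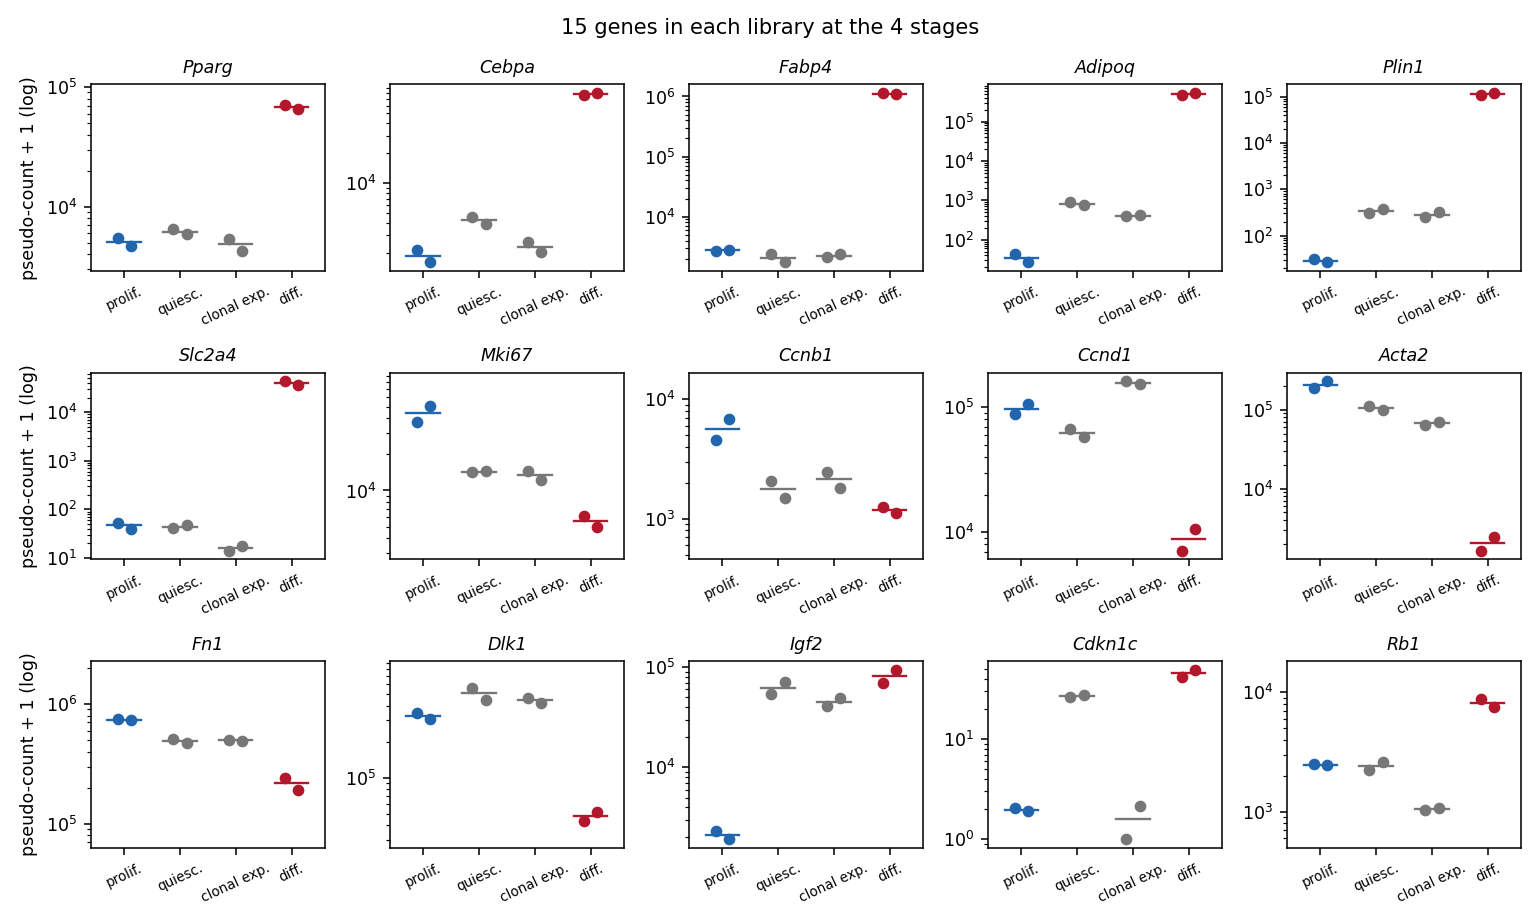
Pseudo-counts plus 1 on a log axis (vertical) of 15 genes in each of the 2 libraries of each stage (points) with the stage mean (line). Adipoq, Plin1, Slc2a4 and Fabp4 are high at differentiation, Igf2 is already high at quiescence, and Ccnd1 is highest at clonal expansion.

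Mitochondrial genes rose together. All 61 tested nuclear genes of oxidative phosphorylation were called higher (background 34.5%), 54 of them by at least 2-fold, with a median log2FC of 1.60 and a range from 0.82 to 10.25. All 61 were also called higher with the same total per library, after quantile normalization and without any one of the 4 libraries of these stages. All 24 citric acid cycle genes (median 1.96), 27 of 30 of fatty acid oxidation (2.20) and 20 of 21 of branched-chain amino acid breakdown (2.63) were called higher. Together with the brown and beige fat list described below, their union took 1.21% and 1.23% of pseudo-counts at proliferation and 4.45% and 4.37% at differentiation. Respiratory subunits thus moved by a few fold where several fat storage genes moved by far more.

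Uqcrfs1, the iron-sulphur subunit of complex III, rose from 7802 and 8227 to 52325 and 50199 (log2FC 2.68). Sdha, a subunit of complex II that also belongs to the citric acid cycle, rose from 30397 and 30306 to 119097 and 116381 (log2FC 1.96, SE 0.09). Cs, citrate synthase, rose from 32420 and 36731 to 165057 and 173140, and Idh3a, a subunit of isocitrate dehydrogenase, from 6879 and 8827 to 92717 and 85352. Isoform genes stood apart from this. Cox7a1 rose from 20.9 and 29.99 to 2776 and 2366, and Cox8b from 1.04 and 0.916 to 2051 and 2803, both subunit forms of muscle and brown fat.

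Crat, carnitine acetyltransferase, rose from 10801 and 9782 to 132289 and 112997 (log2FC 3.57), and Ehhadh, a peroxisomal enzyme of fatty acid oxidation, from 5.97 and 2.08 to 1498 and 2085. Cpt1a, the carnitine palmitoyltransferase of liver, fell from 12126 and 12749 to 5686 and 6666 (log2FC -1.01), as did Acot1 (-2.35). The first step of branched-chain amino acid breakdown exchanged its enzymes. Bcat1, the cytosolic aminotransferase, fell from 16909 and 21752 to 1073 and 1053 (log2FC -4.17), and Bcat2, the mitochondrial form, rose from 5443 and 5007 to 169986 and 166544 (log2FC 5.01).

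Genes associated with brown and beige fat were called higher in 13 of 15 tested and lower in 1, with a median log2FC of 3.09. Among all tested genes 34.5% were higher and 33.3% lower. The lower member was Tmem26, from 60.1 and 51.7 to 24.1 and 21.6 (log2FC -1.25). With the same total per library 2 members were called lower. Ucp3, an uncoupling protein of muscle and brown fat, rose from 6.47 and 2.71 to 991.3 and 996.7. Ucp1, the uncoupling protein that defines brown fat, fell below the filter, with 0.00808 and 1.88 at proliferation and 11.5 and 7.24 at differentiation, and Prdm16, a determinant of brown fat, was listed at 0 and at 11.6 and 11.3. Zic1 was at most 0.939 in any library. Cox8b and Elovl3, which are described above, are also members of this list.

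Glycolysis was called higher in 15 of 20 and lower in 2 (median 1.61). Hk2, the hexokinase of insulin-sensitive tissues, rose from 4283 and 5174 to 72584 and 61611 (log2FC 3.83), while Hk1, found in most cells, fell from 21551 and 22233 to 15018 and 12450 (-0.68). Ldha, lactate dehydrogenase A, rose from 75630 and 107792 to 362844 and 311270. Antioxidant and NADPH genes were called higher in 19 of 34 (55.9%) and lower in 7 (20.6%), beside 34.5% and 33.3% of all genes. Taldo1, transaldolase of the pentose phosphate pathway, rose from 7989 and 8742 to 69039 and 67370, and Cat, catalase, from 14213 and 13029 to 52883 and 66030. Nqo1, a quinone reductase, fell from 18852 and 16712 to 4180 and 4046 (log2FC -2.11).

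Cholesterol genes did not move as a group. Of 23 tested, 10 were called higher (43.5%) and 6 lower (26.1%), not far from the 34.5% and 33.3% of all genes. The median of 0.21 became -0.06 with the same total per library, with 7 called each way. Insig1, which retains the sterol sensor in the endoplasmic reticulum, rose from 13581 and 11675 to 62386 and 39947 (log2FC 1.99), and Sqle, squalene epoxidase, from 25479 and 25391 to 65892 and 59208. Srebf2, the factor that drives the pathway, fell from 44039 and 42704 to 25795 and 25136. Hmgcs1, a synthase of the pathway, was listed at 0 in every library, which says nothing of its RNA where its reads were not assigned to it.

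Cell cycle genes fell together. All 67 tested genes of mitosis and G2/M were called lower (background 33.3%), 66 of them by at least 2-fold, with a median log2FC of -2.64 and a range from -4.28 to -0.37. Of 56 genes of DNA replication and G1/S, 50 were called lower and 4 higher (median -1.60). With CDK inhibitors included, cell cycle lists took 1.42% and 1.69% of pseudo-counts at proliferation and 0.679% and 0.683% at differentiation. The library proliferation 2 was higher than proliferation 1 in mitotic genes, and without it 66 of the 67 were still called lower, with a median of -2.37.

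Mki67, the proliferation marker Ki-67, fell from 37134 and 51212 to 6162 and 4998 (log2FC -2.97, SE 0.16, adjusted p = 1.26e-07). Kif23, a motor of the midbody, fell from 8266 and 11552 to 515.5 and 491.9 (log2FC -4.28), and Ndc80, which ties chromosomes to the spindle, from 4179 and 6405 to 308.7 and 289.6. Ccna2, cyclin A2, fell from 13138 and 19978 to 2054 and 2247 (log2FC -2.91). Ccnb1, cyclin B1, fell from 4545 and 6824 to 1255 and 1118 (log2FC -2.23, SE 0.22), and its kinase Cdk1 from 9015 and 13122 to 3701 and 3147 (log2FC -1.67, SE 0.19). The stages did not overlap in any of these 6 genes, as in 9926 of the 9927 called genes. Cdk1 and Ccnb1 kept 0.309 and 0.209 of their mean at proliferation. Cell cycle transcripts were reduced and not lost.

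Among the G1/S genes, Ccnd1, cyclin D1, fell from 88354 and 106267 to 7113 and 10551 (log2FC -3.48, SE 0.18). E2f8, a repressive E2F factor, fell from 2182 and 3031 to 264.9 and 293.1, Uhrf1, which keeps DNA methylation through replication, from 15783 and 20791 to 2540 and 2492, and Mcm5, a subunit of the replicative helicase, from 17880 and 25976 to 3152 and 3542 (log2FC -2.69). The D cyclins did not fall together: Ccnd2 stood at 174204 and 179779 against 207207 and 217202 and was not called, and Ccnd3 was called higher (0.42), a call lost with the same total per library. The other members called higher were Brca1, a DNA repair gene, from 4495 and 6173 to 12336 and 12739 (log2FC 1.25), E2f2 (0.85) and Ccne1, cyclin E1 (0.53). Without proliferation 1 or differentiation 1, 2 of these 4 were still called.

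Promoters of the mitotic, G1/S and fat cell lists were searched for short sequences. All members with a promoter in the table entered, whatever their call. Known elements of cell cycle promoters are the CCAAT box, bound by NF-Y, the cell cycle homology region TTTGAA, bound by the DREAM and MuvB complexes, and E2F sites. They were searched on both strands in the 300 bases from 250 before to 50 after each RefSeq start (GRCm38.p6), in 32851 promoters of 27025 genes. E2F sites were taken as TTTGGCGC, TTTCGCGC or GGCGGGAA, and any of these may overlap. Promoters were in the table for 56 of the 67 mitotic genes, 44 of the 56 G1/S genes and 111 of the 144 fat cell genes.

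CCAAT was in 47 of 62 promoters of mitotic genes (75.8%), 29 of 52 of G1/S genes (55.8%) and 56 of 155 of fat cell genes (36.1%), beside 37.4% of all promoters. TTTGAA was in 66.1%, 17.3% and 9.68% of these in the same order, beside 17.9% of all. E2F sites were in 8.06%, 40.4% and 3.87%, beside 2.96% of all. The C/EBP pattern TTNNGCAA was in 9.68% of fat cell promoters, 10.8% of all and 8.68% of those of tested genes. Among the 14481 promoters of tested genes, CCAAT was in 37.8%, TTTGAA in 12.3% and E2F sites in 5.03%. The shares of TTTGAA in G1/S promoters and of E2F sites and TTNNGCAA in fat cell promoters thus lie on either side of the background, depending on which is taken. Promoters of the mitotic list thus held CCAAT and TTTGAA more often than all promoters, and those of the G1/S list CCAAT and E2F sites. This is a description of letters and not of binding. In the 250 bases before the start alone, TTTGAA was in 35.5% of mitotic promoters and E2F sites in 23.1% of G1/S promoters, so a good part of the matches lay just after the annotated start.

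The 250 bases before the start are shown for 3 of the genes above to let these elements be seen in place, with every match to a searched pattern in capitals. Cdk1 and Mcm5 were chosen after the matches were known. Ccnb1 lies at chr13:100786487-100786736 on the minus strand and has CCAAT from -99 to -95 and from -67 to -63, counted from the start.
Ccnb1: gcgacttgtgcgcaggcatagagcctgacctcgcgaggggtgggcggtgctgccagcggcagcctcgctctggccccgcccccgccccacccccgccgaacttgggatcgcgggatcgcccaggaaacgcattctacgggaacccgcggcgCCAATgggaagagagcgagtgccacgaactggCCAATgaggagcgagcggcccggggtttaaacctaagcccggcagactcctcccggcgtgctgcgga
Cdk1 lies at chr10:69352913-69353162 on the minus strand and has 3 CCAAT boxes on the opposite strand (read here as ATTGG), 2 copies of the cell cycle homology region, from -71 to -66 and from -15 to -10, and an E2F site from -131 to -124.
Cdk1: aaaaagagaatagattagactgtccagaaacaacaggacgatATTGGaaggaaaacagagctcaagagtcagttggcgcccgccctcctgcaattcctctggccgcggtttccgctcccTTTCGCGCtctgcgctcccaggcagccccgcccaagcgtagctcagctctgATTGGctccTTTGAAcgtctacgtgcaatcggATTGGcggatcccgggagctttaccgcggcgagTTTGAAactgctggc
Mcm5 lies at chr8:75109259-75109508 on the plus strand and has overlapping E2F sites from -153 to -142, CCAAT from -77 to -73 and from -22 to -18, and the cyclic AMP response element TGACGTCA from -99 to -92.
Mcm5: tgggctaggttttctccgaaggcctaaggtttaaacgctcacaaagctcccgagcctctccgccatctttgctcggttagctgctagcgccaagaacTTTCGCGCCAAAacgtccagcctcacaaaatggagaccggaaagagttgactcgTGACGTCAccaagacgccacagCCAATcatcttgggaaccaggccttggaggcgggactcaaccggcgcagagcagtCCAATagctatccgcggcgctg

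Inhibitors of cyclin-dependent kinases and genes of growth arrest went both ways, 10 called higher and 10 lower of 30, close to the background of 34.5% and 33.3%. Their median of -0.07 took either sign depending on which library was left out. Cdkn2c, the inhibitor p18, rose from 2044 and 2352 to 19570 and 24587 (log2FC 3.32). Rb1, the retinoblastoma protein, rose from 2523 and 2444 to 8780 and 7528 (log2FC 1.71), and Foxo1, a factor that insulin restrains, from 3098 and 3679 to 16633 and 16943. Cdkn1c, the imprinted inhibitor p57, rose from 1.04 and 0.916 to 40.7 and 48.2, a log2FC of 4.52 that was 1.83 with a constant of 16.

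Other members of the list were not called or fell. Cdkn1a, the inhibitor p21, stood at 36838 and 36385 against 40178 and 41209 and was not called (log2FC 0.15, 95% interval -0.13 to 0.43), and Rbl2, the pocket protein p130, at 8838 and 8227 against 9404 and 8848 (0.10, -0.15 to 0.34). Cdkn1b, the inhibitor p27, fell from 12543 and 12152 to 6864 and 6819 (log2FC -0.85), Cdkn2b, p15, from 11082 and 10170 to 4447 and 3921, and Trp53, p53, from 20080 and 21704 to 5247 and 6448 (log2FC -1.84). Gas2, named for its rise in growth-arrested fibroblasts, fell from 12817 and 14295 to 1075 and 1472.

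Of 40 tested cytosolic ribosomal protein genes, 33 were called lower and none higher (median -0.58), beside 33.3% and 34.5% of all genes. The count depended on the libraries: it was 18 without proliferation 2 and 22 or 23 without any other library of the 2 stages, while all medians lay between -0.53 and -0.60. Rps20 fell from 44985 and 45373 to 18255 and 17719 (log2FC -1.33). These genes have many processed copies in the genome, so their reads may be assigned unevenly. Ribosome biogenesis showed no common direction. Of its 48 tested genes, 13 were called higher, 12 lower and 20 were held within 1.5-fold, beside 34.5%, 33.3% and 21.7% of all genes. With the same total per library it had 2 higher and 23 lower, and 6 were higher without proliferation 1 and 5 without differentiation 2. Npm1, nucleophosmin, fell from 61091 and 80585 to 26583 and 24422 (log2FC -1.46), and Imp4, of the small subunit processome, rose from 4857 and 4997 to 9096 and 9699 (0.93).

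The cytoskeleton of the fibroblast fell with little exception. Among all genes 33.3% were called lower and 34.5% higher. Of 43 tested genes of actin, its partners and targets of the factors SRF and YAP, 40 were called lower and 2 higher, with a median of -1.87. They took 2.39% and 2.65% of pseudo-counts at proliferation and 0.596% and 0.620% at differentiation. Beside Acta2, Tagln, the actin binding protein SM22, fell from 11462 and 17311 to 439.8 and 537.8 (log2FC -4.85), and Actb, β-actin, from 361981 and 451574 to 118154 and 126053 (-1.73). Srf itself fell from 13956 and 17359 to 4631 and 5166, while Yap1 fell less, from 23598 and 24757 to 20520 and 19946 (-0.26). Wwtr1, the YAP relative TAZ, was called higher, from 15778 and 16223 to 25173 and 24578 (0.64).

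The classical YAP targets Ctgf and Cyr61, and Ptgs2 of the chemokine and inflammation list, also differed within proliferation. Ctgf, a matrix-bound growth regulator, stood at 817.0 and 3318 there and at 9.53 and 15.4 at differentiation (log2FC -6.97, SE 0.51), and at -5.96 without proliferation 2. Cyr61, its relative, stood at 26862 and 105613 against 1410 and 1610. Ptgs2, the inducible cyclooxygenase, stood at 2141 and 9994 against 211.6 and 208.8 (log2FC -4.45), and at -3.34 without proliferation 2. In all 3 genes the lower of the proliferating libraries still lay above both differentiated ones. Stages were likewise apart in nearly all called genes.

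Of 28 tested collagens, 13 were called higher and 10 lower (median 0.54), not far from the background of 34.5% and 33.3%, and single chains moved by far more than this median. Col1a1, of type I collagen, fell from 815729 and 749172 to 325354 and 391835 (log2FC -1.13, SE 0.16), and Col12a1 from 190704 and 171348 to 6988 and 8964 (-4.51). Of the basement membrane collagens, Col4a1 rose from 247930 and 239681 to 718138 and 784781 (1.62, SE 0.14), Col4a2 from 151341 and 150353 to 496294 and 507423 (1.73), and Col15a1 from 3866 and 2951 to 64371 and 63381 (4.24). Col6a3, of the type VI collagen around fat cells, rose from 360488 and 296785 to 1390768 and 1372354 (2.08). Col4a6 (-2.21) and Col4a5 (-0.86), also of type IV collagen, fell. Col3a1 was called higher at 665831 and 538742 against 817290 and 980873 (0.58), a call that was lost without proliferation 2 or differentiation 2 and with the same total per library (0.31), and its change was -0.05 after quantile normalization.

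Of 57 other matrix proteins, 34 were called lower and 16 higher (median -0.92), beside 33.3% and 34.5% of all genes. Fn1, fibronectin, fell from 744649 and 736543 to 242983 and 192651 (log2FC -1.77, SE 0.15), and Thbs1, thrombospondin 1, from 195897 and 228214 to 6699 and 11964 (-4.56). Small proteoglycans rose, Lum, lumican, from 362.8 and 190.3 to 8663 and 11451 and Dcn, decorin, from 3380 and 2687 to 20096 and 25360, whereas their relative Fmod, fibromodulin, fell from 3290 and 3022 to 213.2 and 390.8. Smoc1, a calcium-binding matrix protein, rose from 226.4 and 189.3 to 13620 and 12152 (5.95).

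Remodelling enzymes and their inhibitors were called lower in 24 of 41 and higher in 11, beside 33.3% and 34.5% of all genes. Timp3, an inhibitor of metalloproteinases, fell from 11280 and 13810 to 253.4 and 264.6 (log2FC -5.59, SE 0.13), and its relative Timp4 rose from 376.7 and 172.8 to 5150 and 4867 (4.29). Mmp9, a gelatinase, fell from 7393 and 5025 to 192.8 and 308.0, and Lox, which crosslinks collagen, from 141407 and 134485 to 46697 and 56405. Adamts15, a protease of proteoglycans, rose from 667.6 and 481.6 to 24290 and 21209. All matrix lists together took 8.82% and 8.05% of pseudo-counts at proliferation and 6.35% and 6.74% at differentiation, but 12.9% and 12.7% at quiescence.

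**Figure D4:**
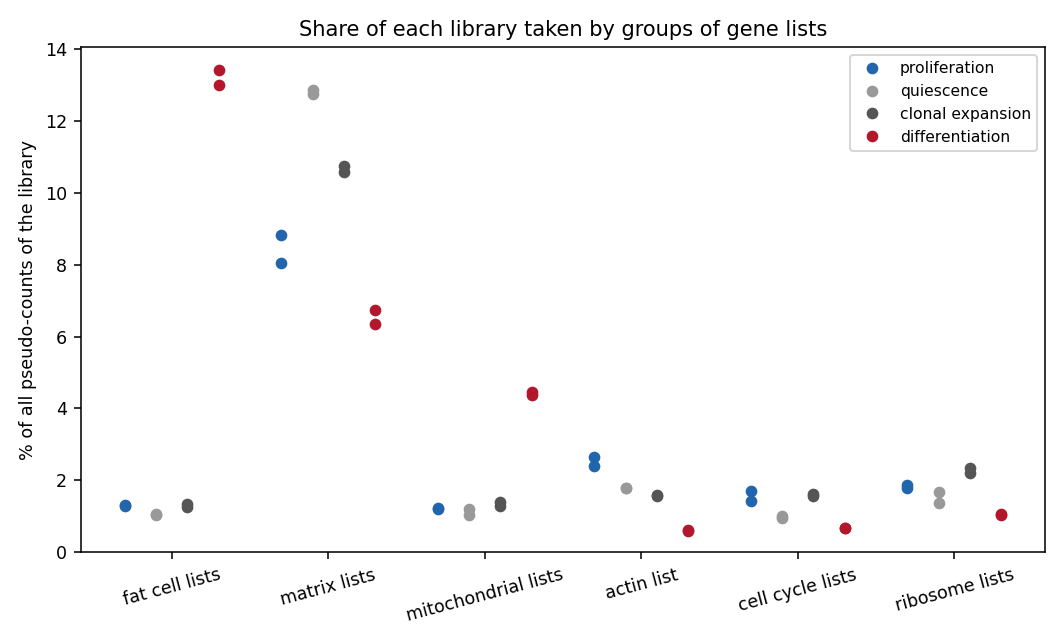
Share of all pseudo-counts of a library (vertical, percent) taken by groups of gene lists (horizontal), with 1 point per library coloured by stage. Fat cell lists reach 13.0% and 13.4% at differentiation against 1.30% and 1.29% at proliferation, and matrix lists peak at quiescence.

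Growth factors, receptors and binding proteins were called higher in 11 and lower in 13 of 29, again near the background of all genes. Igf2, insulin-like growth factor 2, rose from 2295 and 1919 to 69026 and 94462 (log2FC 5.26, SE 0.18), with 54325 and 70440 already at quiescence. Igfbp4, which binds it, rose from 3218 and 1992 to 131818 and 129200 (5.69), and Vegfa, the endothelial growth factor, from 15805 and 13511 to 104696 and 73333. Fgf7, a fibroblast growth factor, fell from 25624 and 30561 to 1708 and 1609 (-4.08). Pdgfra, the receptor that marks fat progenitors, stood at 54278 and 42783 against 37386 and 50152, which overlapped (log2FC -0.15, 95% interval -0.54 to 0.23, limma adjusted p = 0.44).

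Of 48 tested imprinted genes, 18 were called higher and 18 lower, close to the background, and the median of 0.09 was -0.18 with the same total per library. Igf2 and its neighbour H19 differed between the ends, though both stood above proliferation at quiescence and clonal expansion. H19 reached 2639 and 3411 at quiescence and 4733 and 6794 at clonal expansion. H19, the noncoding neighbour of Igf2, stood at 873.4 and 668.1 against 357.3 and 594.3 (-0.73), a call lost without proliferation 1 or differentiation 1. Slc38a4, an amino acid transporter, fell from 24780 and 29213 to 2224 and 2435, and Mest, which enlarges fat cells when overexpressed, rose from 1072 and 713.2 to 5117 and 4662 (2.48).

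Of 28 tested genes of chemokines and inflammation, 18 were called lower and 8 higher (median -2.09), beside 33.3% and 34.5% of all genes. Ccl2, which attracts monocytes, fell from 9625 and 15255 to 282.0 and 262.5 (log2FC -5.47), and Cxcl5 from 5054 and 7507 to 248.6 and 329.3. C3, the central complement component, rose from 9896 and 7608 to 1279949 and 1510945 (7.32, SE 0.14), C4b from 217.5 and 184.1 to 2919 and 2392, and Lcn2, lipocalin 2, from 55.8 and 68.6 to 16541 and 12812. Lcn2 and Saa3, serum amyloid A3, were both higher at clonal expansion, at 35998 and 29375 and at 1514 and 1257, than at differentiation.

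Interferon response genes were called lower in 18 of 34 and higher in 4, beside 33.3% and 34.5% of all genes. Their median was -0.66, and -0.35 without proliferation 1. Ifit2, an interferon-induced RNA binding protein, fell from 3155 and 3197 to 627.3 and 524.2 (log2FC -2.47). Usp18, which damps interferon signals, was called higher (1.67).

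Markers of preadipocytes fell in part. Of 15 tested, 10 were called lower and 4 higher, beside 33.3% and 34.5% of all genes. Ly6a, the stem cell antigen Sca-1, fell from 18854 and 24304 to 3050 and 3060 (log2FC -2.81), and Vim, vimentin, from 885292 and 813159 to 208774 and 189535 (-2.09). The higher members were Lum, Dcn, Col3a1 and Zfp423, a factor of fat commitment (0.74).

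Markers of other cell types ranged from absent to clearly measured. Ptprc, the common leukocyte antigen, Cd3e and Hba-a1 were at most 2.73 in every library, Epcam was listed at 0, and Myod1 was at most 2.05. Among all tested genes 34.5% were called higher and 33.3% lower. Of 8 tested macrophage and blood markers, 4 were lower and 1 higher. Of 6 endothelial markers, 4 were lower and none higher. Lyz2, lysozyme of macrophages, fell from 3415 and 2797 to 408.2 and 376.4. Of 13 markers of muscle, bone and cartilage, 5 were lower and 6 higher, not far from the shares of all genes. With the same total per library their median moved from 0.00 to -0.27. Sox9, a factor of cartilage, fell from 18893 and 17832 to 1869 and 2229, and Runx2, of bone, from 11917 and 12777 to 2737 and 2762. Des, desmin of muscle, rose from 1321 and 1037 to 5571 and 4992, and Alpl, the alkaline phosphatase of bone, from 51.2 and 27.3 to 2078 and 2153. Of 7 tested epithelial markers, 4 were called higher and 2 lower, and every one of these is a keratin. Krt18, a keratin of simple epithelia, went from 1.03 and 0 to 1711 and 801.2, and its partner Krt8 from 5.17 and 4.46 to 106.8 and 55.1, with differentiation 1 the higher library in both. Krt19, also called higher, went from 168.9 and 176.4 to 901.4 and 326.1. Its log2FC of 1.65 was 0.91 without differentiation 1. The lower members were Krt5, from 101.3 and 96.4 to 0 as listed, and Krt15, from 2294 and 1961 to 244.1 and 118.3 (log2FC -3.63). The part of these markers in the other results was not tested.

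Of 20 genes used to normalise quantitative PCR, 16 were called, 6 higher and 10 lower, a share not far from the 67.8% of all genes. Tubb5, β-tubulin, fell from 229630 and 272983 to 49668 and 46740 (log2FC -2.38) and Actb by 1.73 on the same scale, while Sdha rose by 1.96. Gapdh, at 1820 and 3001 against 3043 and 6956 (0.98), lost its call without proliferation 1 (0.62) or differentiation 2 (0.38) and with the same total per library (0.70), and has many processed copies, as has Ppia. B2m, β2-microglobulin, at 54142 and 49850 against 55793 and 55609 (0.10, 95% interval -0.17 to 0.37), and Tbp, the TATA-binding protein, at 3317 and 3741 against 3357 and 3295 (-0.08, -0.32 to 0.15), had intervals within 1.5-fold. With the same total per library Tbp was called lower. Without proliferation 2 or differentiation 1, 6 of the 20 were called lower.

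**Figure D5:**
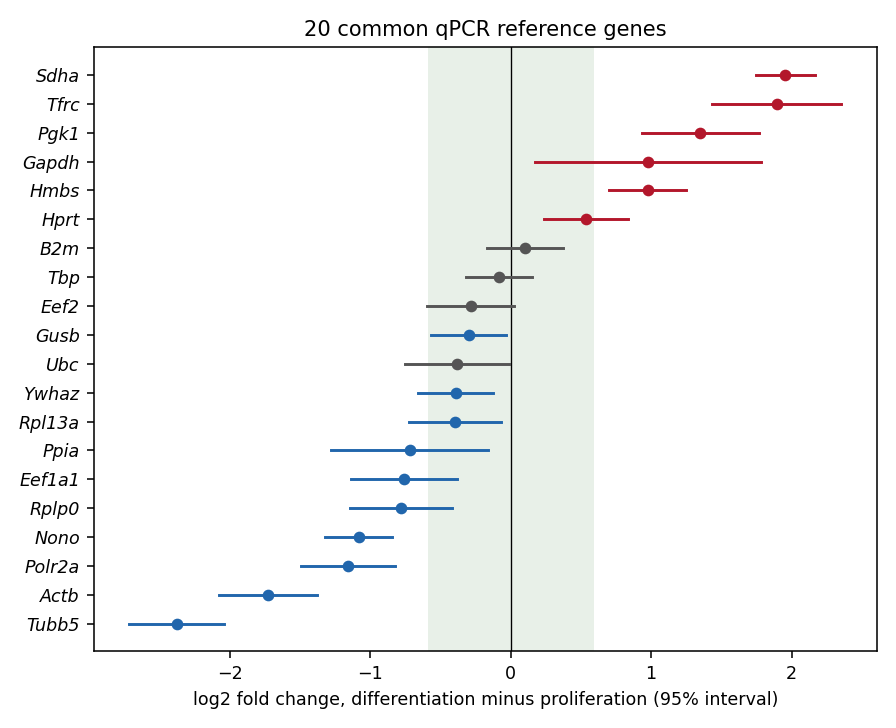
Log2FC with its 95% interval (horizontal) of 20 common reference genes (rows), red where called higher, blue where called lower and grey where not called. The green band marks 1.5-fold either way, within which the intervals of B2m, Tbp and Gusb lie, while Tubb5 and Sdha lie at -2.38 and 1.96.

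The stages between did not always lie between the ends. Of the 2729 genes at least 2-fold higher at differentiation, 1026 (37.6%) had both quiescent libraries between the ends and 1092 (40.0%) both clonal expansion libraries, but 420 (15.4%) had both stages there. At clonal expansion 888 (32.5%) were below both proliferating libraries. Slc2a4 was one, at 13.1 and 16.2 there against 52.4 and 39.0 at proliferation, and so was Rb1, at 1036 and 1079. Of the 2585 genes at least 2-fold lower, 1288 (49.8%) were between the ends at quiescence, 625 (24.2%) had both stages there, and 321 (12.4%) were still lower at clonal expansion than at differentiation. Timp1, a metalloproteinase inhibitor that ended lower, stood at 10892 and 15309 at proliferation, at 38973 and 35060 at clonal expansion and at 1401 and 1341 at differentiation. At quiescence, before any cocktail, Adipoq stood at 910.2 and 743.7 and Plin1 at 313.2 and 363.9, above both proliferating libraries.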

How the data were processed

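Total RNA of 3T3-L1 cells, isolated with Trizol, was made into unstranded libraries and read once over 100 nt, per the labels' protocols. CASAVA 1.8.2, edgeR and the genome build mm9 are named in the submitters' processing notes, and the aligner and gene models are not given in the sources used here. The deposited values are a signal per gene, pseudo-counts that the authors scaled to a common library size, and are not whole reads, so no count model was fitted to them. With no raw counts, sampling error of single values is unknown. From them log2(value + 1) was computed for genes averaging at least 10 over the 8 libraries and fitted with limma 3.58.1 (R 4.3.3, trend on, 1 mean per stage, all 4 stages sharing the spread, Benjamini-Hochberg adjustment over 14647 genes). The fit was checked on simulated data. Tables and figures used Python 3.11.15, pandas 2.3.3, numpy 2.4.6 and matplotlib 3.10.9. Values under 1e-08 are described as listed at 0. Where reads of overlapping genes met, strand could not separate them.

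Members and lists were chosen with earlier results of these data known. The rule named the 12 largest rises and falls among called genes that averaged at least 200 in either stage. Both libraries of one stage also had to lie above both of the other. Up to 4 called members per list and direction and fixed genes were named as well. Adrb1, Adrb3, Ccnd2, Col4a5, Cs, Cyr61, Insr, Ldha, Lipe, Lox, Mcm5, Mest, Nr1h3, Pnpla2, Srf, Tagln, Timp1, Vegfa and Yap1 were added after their values were seen. The 36 lists share 41 genes. Alternatives changed the constant, the filter, the scaling, the variance trend, the libraries fitted and the replicate block, and left out each library in turn, where a stage with 1 library was assumed to vary like the others. A few genes are not reported here.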

Additional observations from a re-analysis of the deposited data

How the results depend on the processing

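With 2 libraries per stage, small changes rest on few values. Leaving out each library in turn gave 4282 to 5312 higher genes, 4182 to 5132 lower genes and 2218 to 3565 genes held within 1.5-fold. With a band of 2-fold, 6654 genes were held. Scaled to the same total per library, 3760 genes were higher and 6518 lower, and 41 calls took the other sign; after quantile normalization there were 4590 and 5459. Labels number the libraries of each stage 1 and 2, but deviations of same-numbered libraries correlated at 0.013 between proliferation and differentiation and at up to 0.354 between other stages, and the replicate block gave 5195 higher and 5014 lower genes. Over 270 named genes, 4484 of 4567 comparisons with an alternative kept direction and call, 73 lost the call, 9 gained it and 1 turned: Col3a1 stood at -0.05 after quantile normalization, and the cause was not tested. Of 262 called named genes, 241 kept their call under every alternative that tested them. With the same total per library, interferon response genes had 2 higher in place of 4, G1/S genes 2 in place of 4 and inhibitors of adipogenesis 2 in place of 4. Median changes of growth factors (-0.15) became 0.02 without proliferation 1 and 0.06 without differentiation 1.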

Other observations

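Genes alike at both ends were not always steady between them. Of the 2764 genes that were not called and whose 95% interval lay within 1.5-fold, 235 had clonal expansion at least 2-fold above both ends and 174 at least 2-fold below, while quiescence gave 22 and 10. The genes named here were chosen after their values were seen, and these departures were not tested.

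Klf5, a Krüppel-like factor of early adipogenesis, stood at 561 and 689 at proliferation, at 5635 and 6852 at clonal expansion and at 572 and 679 at differentiation. Gclc, the first enzyme of glutathione synthesis, stood at 2883 and 3946, then at 26931 and 25253, then at 3293 and 3608. Tnfrsf21, a death receptor, stood at 1675 and 1219 at proliferation, was already at 12635 and 10735 at quiescence, and ended at 1451 and 1521. Each of these ended about where it had started, which was the condition for being chosen here.

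Adra1d, an α1-adrenergic receptor, went the other way, from 5385 and 5795 to 566 and 494 at clonal expansion and back to 5667 and 6002. Mvd, of the mevalonate pathway, was low at both stages between. It stood at 7789 and 7314 at proliferation, at 2229 and 1709 at quiescence, at 2453 and 2332 at clonal expansion and at 9536 and 7890 at differentiation.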
